A study of Rattus norvegicus with 24 samples.

Results

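The chondroitin sulfate proteoglycans of the nervous system and the proteins that bind them into the matrix were examined here on arrays of thoracic propriospinal (TPS) neurons after a spinal transection. They comprised 10 genes of the 14324 that had a probe with 1 gene symbol on the array. The members were taken by name, and each had 1 probe: the lecticans Bcan (brevican), Ncan (neurocan), Acan (aggrecan) and Vcan (versican), the link proteins Hapln1 and Hapln2, tenascin-R (Tnr), and the membrane proteoglycans Cspg4 (NG2), Cspg5 (neuroglycan C) and Ptprz1 (a receptor tyrosine phosphatase). The list was drawn up with earlier results of these data known, and its rule sets no threshold on a measured value.

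TPS neurons are spinal neurons whose axons run within the cord and, in the population labelled here, reach the lumbar enlargement. They had been filled retrogradely with the fluorescent tracer Fluoro-Gold, cut out of frozen mid-thoracic cord by laser microdissection, and their amplified RNA hybridised to 24 Affymetrix Rat Gene 1.0 ST arrays, with 1 animal to an array. All animals were female Long Evans rats of 77 ± 10 days. The cord was cut completely at the low thoracic level 1 week after the tracer in 12 animals, which were killed 3 days (n = 4), 1 week (n = 4), 2 weeks (n = 2) or 1 month (n = 2) post-injury (p.i.), and it was left uncut in 12 animals.

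The uninjured animals carried the tracer as well and are labelled 4-day, 2-week and 1-month controls (n = 4 each). The methods place these 3 groups 10 days, 3 weeks and 5 weeks after the tracer, the same delay as their transected partners, except that the 3-day and 1-week animals share the 4-day controls. Each array therefore holds the RNA of one animal's labelled neurons and of whatever tissue was cut out with them. In such bulk RNA, fewer cells of a type and less RNA per cell cannot be told apart.

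Lecticans carry chondroitin sulfate chains on a protein core whose N-terminal domain binds hyaluronan, a bond that link proteins fasten, and whose C-terminal domain binds tenascins. Together these parts form the loose matrix of the central nervous system and the denser perineuronal nets around some neurons. Glia are a main source of neurocan, brevican and versican, neurons also make several of these molecules, and chondroitin sulfate proteoglycans gather around a spinal cord injury, where they limit axon growth.

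In the neuron samples 3 days p.i., neurocan rose and brevican fell, and both were back within the range of the controls at 1 week. The mean level of versican was highest of the 7 groups at 3 days and lowest at 1 week, a difference that passed the test between those times. None of the other 7 members passed the test in any comparison of transected animals with their controls or of 3 days with 1 week. The promoters of the lecticans that differed are given first, the 250 bases upstream of the start of each gene in RefSeq on the rat build GRCr8, read 5′ to 3′ on the gene's own strand. Capitals mark a GC box (GGGCGG on either strand) or a TATA motif (TATAAA on either strand).

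Bcan promoter, chr2:175765315-175765564, minus strand: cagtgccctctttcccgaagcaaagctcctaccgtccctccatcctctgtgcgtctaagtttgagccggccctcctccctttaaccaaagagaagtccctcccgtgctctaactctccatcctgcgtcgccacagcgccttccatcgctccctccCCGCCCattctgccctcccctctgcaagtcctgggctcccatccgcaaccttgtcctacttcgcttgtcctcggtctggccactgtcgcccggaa

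Ncan promoter, chr16:19335657-19335906, plus strand: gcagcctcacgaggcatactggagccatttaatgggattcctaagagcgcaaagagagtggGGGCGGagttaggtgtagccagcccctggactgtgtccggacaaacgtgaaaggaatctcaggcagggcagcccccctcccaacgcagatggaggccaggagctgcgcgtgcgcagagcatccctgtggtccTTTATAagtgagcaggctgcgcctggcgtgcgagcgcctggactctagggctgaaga

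Vcan promoter, chr2:22595956-22596205, minus strand: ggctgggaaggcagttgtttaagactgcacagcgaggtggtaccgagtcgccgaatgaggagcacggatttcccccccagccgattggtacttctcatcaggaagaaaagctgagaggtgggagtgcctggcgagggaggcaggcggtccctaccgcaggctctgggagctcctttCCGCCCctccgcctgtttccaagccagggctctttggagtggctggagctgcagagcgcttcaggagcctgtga

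RefSeq promoter records matched 8 of the 10 members, all but Cspg5 and Ptprz1. Each of the 3 sequences printed holds 1 GC box, and that of Ncan also holds 1 TATA motif, read on the opposite strand. Among the other members, the window of Acan holds 3 GC boxes, that of Cspg4 holds 2, and those of Hapln1, Hapln2 and Tnr hold neither motif. Over all 33469 RefSeq promoters of the same length, 30.5% hold a GC box and 12.9% the TATA motif. The motifs of AP-1 (TGANTCA, in 6.34% of all promoters), STAT factors (TTCNNNGAA, 7.67%) and NFI factors (TTGGCA, 12.02%), searched on both strands, were in none of the 8 windows. No marked motifs overlap in the printed windows, whereas 2 of the GC boxes of Acan do. Lecticans and link proteins are neighbours in the genome: with no other protein-coding gene between them in the RefSeq order, Bcan lies beside Hapln2 and Vcan beside Hapln1 on chromosome 2, Acan beside Hapln3 on chromosome 1, and Ncan beside Hapln4 on chromosome 16.

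All levels are log2 of the normalised probe intensity, and all differences are log2 differences between groups. A probe's level reflects its own affinity as well as the RNA, so members are compared only with themselves. All 10 members lay above the filter on low values, which left 23240 probes for the tests. The members split by how much they varied: the SD over the 24 arrays was 0.59 for Ncan, 0.45 for Bcan, 0.36 for Vcan and 0.35 for Hapln1, against a median of 0.19 over all tested probes, whereas the SDs of Acan (0.15), Cspg4 (0.12), Ptprz1 (0.16) and Hapln2 (0.16) were below that median.

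**Figure D1:**
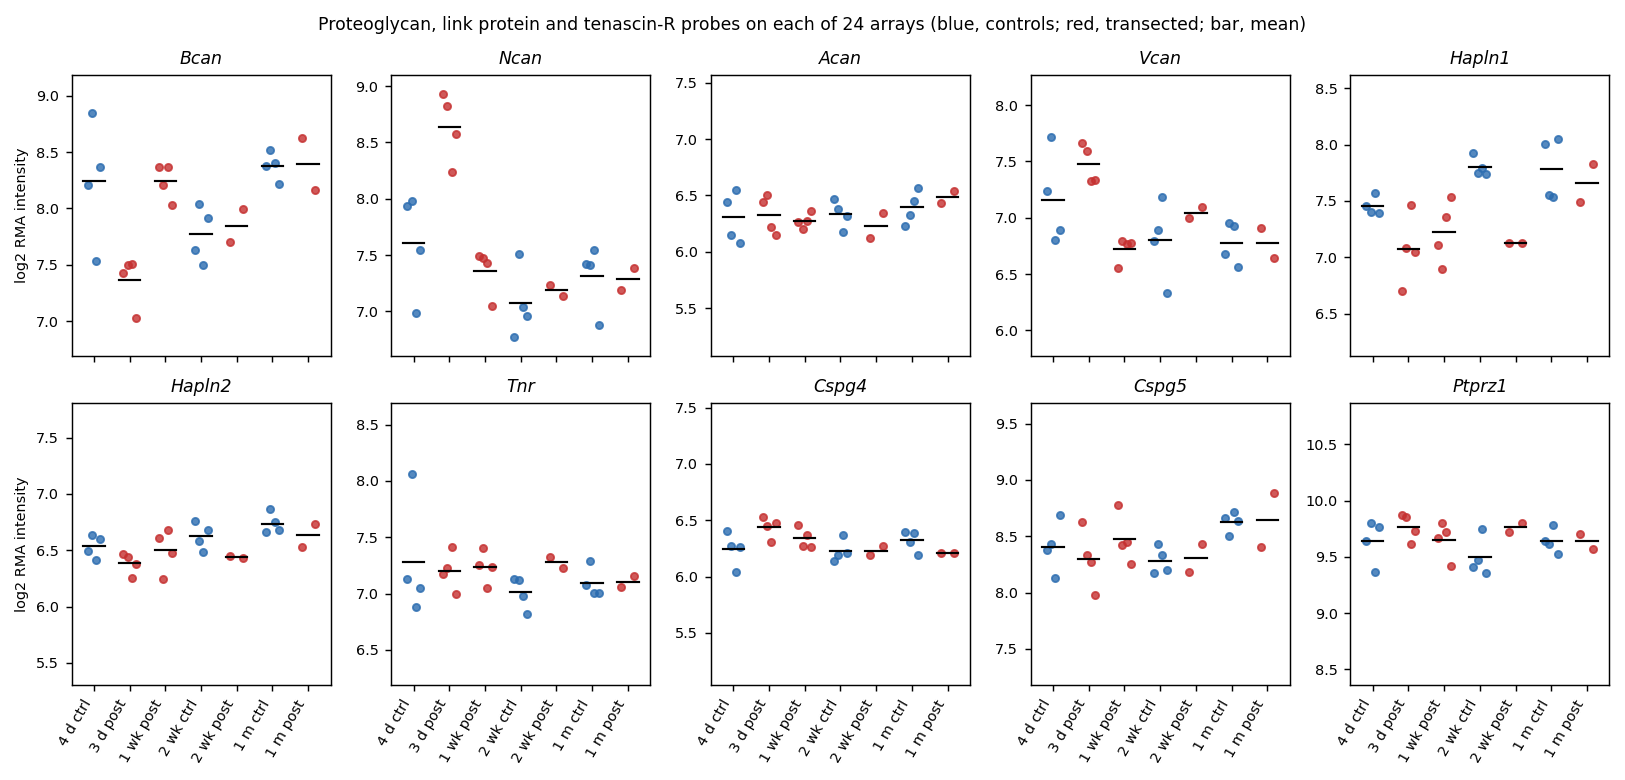
Level of each member (log2 intensity) on each of the 24 arrays, by group, with blue points for uninjured controls (ctrl), red points for transected animals (post) and a bar at each group mean; every panel spans the same number of log2 units. The 3-day arrays stand highest for Ncan (8.24 to 8.93) and low for Bcan (7.03 to 7.51), while Acan, Cspg4, Hapln2 and Ptprz1 stay within narrow ranges.

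The question at 3 days was whether axotomized TPS neurons, compared with those of the 4-day controls, differed in these genes. Neurocan, a lectican secreted by astrocytes and by developing neurons, stood at 7.93, 7.98, 6.99 and 7.55 in 4-day controls 1 to 4 and at 8.93, 8.82, 8.24 and 8.58 in 3-day animals 1 to 4. Every transected animal was above every control. The mean rose from 7.61 ± 0.46 (SD, n = 4) to 8.64 ± 0.31 (SD, n = 4), a log2 difference of 1.03 (SE 0.20, 95% CI 0.60 to 1.45) or 2.04-fold, with an adjusted p of 0.00627 from limma. The 4 animals at 3 days were also above all 20 other arrays of the series, of which the highest was at 7.98.

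Brevican, the lectican of the adult brain and cord found around synapses and at nodes of Ranvier, moved the other way. It stood at 8.21, 8.85, 7.54 and 8.37 in 4-day controls 1 to 4 and at 7.42, 7.50, 7.51 and 7.03 in 3-day animals 1 to 4. The groups did not overlap, but 4-day control 3 (7.54) was close to the highest transected animal (7.51). The mean fell from 8.24 ± 0.54 (SD, n = 4) to 7.37 ± 0.23 (SD, n = 4), a difference of -0.87 (SE 0.20, 95% CI -1.28 to -0.47), or 0.545 of the control level (limma adjusted p = 0.0164). Against the 20 other arrays, 19 were above all the 3-day animals.

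These were 2 of 10 members called, 1 in each direction, where 2.89% of all tested probes were called at 3 days (2% higher and 0.886% lower). Their groups were also the only ones among the members that did not overlap, as was so for 5.51% of tested probes. As a list the members did not move one way: 5 were higher and 5 lower (52.4% of tested probes were lower), with a median difference of -0.03, against -0.01 over all tested probes. At an unadjusted p under 0.05 stood 4 members (14.2% of tested probes), the other two being Hapln1 and Cspg4.

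**Figure D2:**
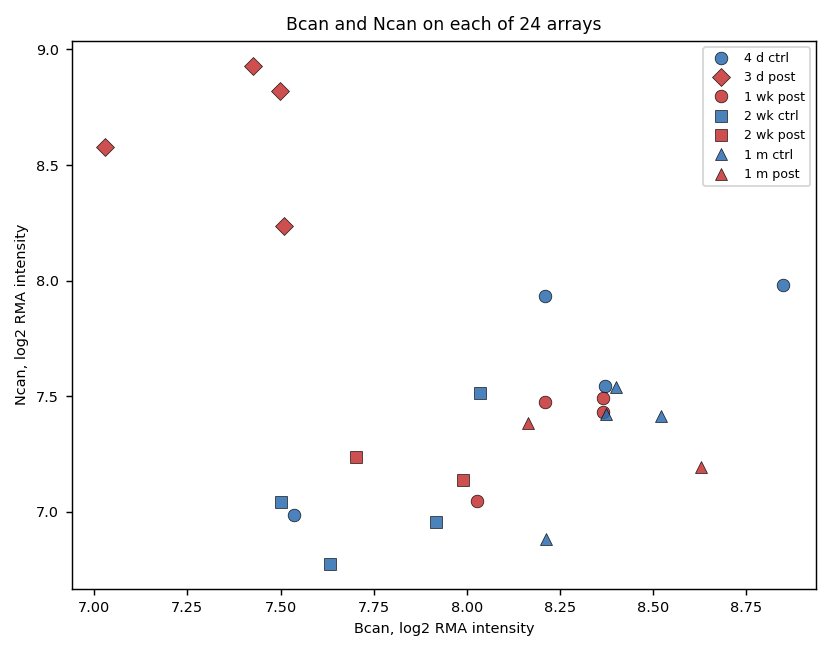
Level of Bcan (x axis) against that of Ncan (y axis), both in log2 intensity, with 1 point per array; blue marks controls, red marks transected animals, and the symbol gives the group. The 4 animals of 3 days p.i. (diamonds) lie apart at the upper left, with Ncan at 8.24 or above and Bcan at 7.51 or below.

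The lectican versican, made by oligodendrocyte progenitors and fibroblasts among other cells, was at 7.24, 7.71, 6.80 and 6.89 in the 4-day controls and at 7.66, 7.59, 7.33 and 7.33 at 3 days. The transected animals lay in the upper part of the control range, above 3 of the 4 controls. The difference of 0.32 (SE 0.17, 95% CI -0.04 to 0.68) did not pass (adjusted p = 0.449). Aggrecan, the lectican that is most closely tied to perineuronal nets, was at 6.31 ± 0.23 in the controls and 6.33 ± 0.17 at 3 days (SD, n = 4 each), a difference of 0.02 (95% CI -0.20 to 0.25).

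Of the link proteins, Hapln1 stood at 7.45, 7.40, 7.57 and 7.39 in the 4-day controls and at 6.70, 7.08, 7.46 and 7.04 at 3 days. Only 3-day animal 3 lay within the control range, and the difference of -0.38 (SE 0.15, 95% CI -0.70 to -0.07) had an adjusted p of 0.221 after an unadjusted p of 0.0194. Hapln2, a link protein found at nodes of Ranvier, differed by -0.15 (SE 0.09, adjusted p = 0.508). Tenascin-R, which binds the lecticans and cross-links them, ranged from 6.88 to 8.06 in the controls and from 6.99 to 7.41 at 3 days, and its difference was -0.08 (95% CI -0.43 to 0.28).

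The membrane proteoglycans differed little at 3 days. Cspg4, a marker of oligodendrocyte progenitors and pericytes, was 0.19 higher (SE 0.08, 95% CI 0.03 to 0.36, adjusted p = 0.251). Cspg5, an EGF-like membrane proteoglycan of neurons and glia, differed by -0.11 (95% CI -0.40 to 0.19) and Ptprz1, whose secreted form is the proteoglycan phosphacan, by 0.13 (95% CI -0.09 to 0.35).

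The SEs and intervals rest on the spread within all 7 groups. Pooled over them, the SD was 0.30 for Bcan and 0.31 for Ncan, less than in the 4-day controls (0.54 and 0.46). The 3-day calls were lost in some other fits. In a fit of the 3-day animals and 4-day controls alone, neither was called (Bcan adjusted p = 0.270, Ncan adjusted p = 0.179), as was so for all but 22 probes, and with 4-day controls 1 and 2 only the Ncan difference was 0.68 (adjusted p = 0.134) while Bcan stayed called at -1.16 (adjusted p = 0.00516). Without 3-day animal 4, Bcan differed by -0.76 with an adjusted p of 0.064.

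**Figure D3:**
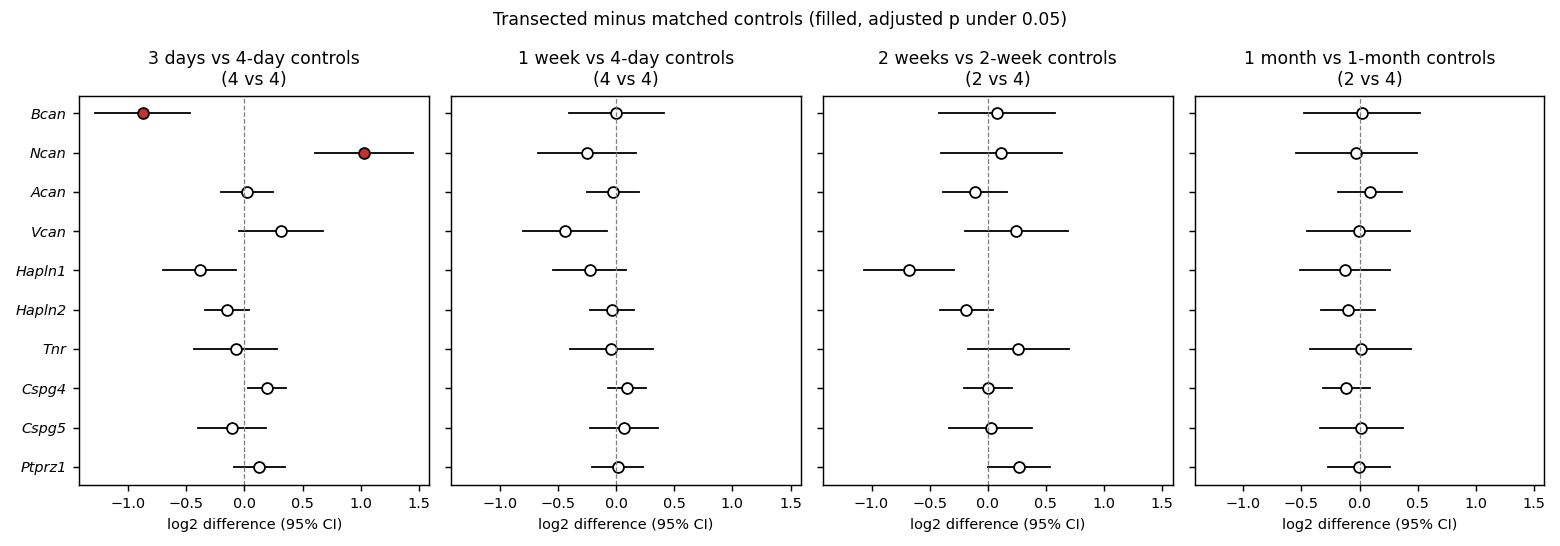
Log2 difference of each member between transected animals and their matched controls at each time (x axis), with 95% confidence intervals as bars and filled points for an adjusted p under 0.05; the 3-day and 1-week panels share the same controls. Only Bcan (-0.87) and Ncan (1.03) at 3 days are filled.

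The neurons were cut out one by one, and markers of the neighbouring cell types were read in the same arrays. At 3 days all 14 microglial and macrophage markers had fitted differences above 0, and 8 of them passed the test (2% of all tested probes passed as higher). Their summed intensity ran from 7511 to 10317 at 3 days against 2334 to 6300 in the controls, with no overlap. Of 12 astrocyte markers 9 had differences below 0 and 3 above. The 3 that passed all fell: Slc6a11 (-1.34, adjusted p = 2.73e-05), Kcnj10 (-0.89, adjusted p = 0.00103) and Gjb6 (-0.45, adjusted p = 0.0446), where 0.886% of all tested probes passed as lower. Gfap, the filament protein of reactive astrocytes, differed by 0.91 (SE 0.37, unadjusted p = 0.021, adjusted p = 0.231) and Slc1a3, a glutamate transporter, by 0.22 (adjusted p = 0.752). The summed intensity of the astrocyte list was 12835 to 15185 at 3 days and 12235 to 18875 in the controls. The control lowest in both Bcan and Ncan, 4-day control 3, was also lowest of these controls in every marker sum but 2. Those were the neuronal and the oligodendrocyte progenitor sums.

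Of 12 neuronal markers 10 had differences below 0, and 2 passed the test, Rbfox3 (-0.40) and Ina (-0.37), with sums of 27740 to 30446 at 3 days and 28776 to 31383 in the controls. Tagln, 1 of 7 markers of pericytes and smooth muscle, passed as higher, with sums for that list of 2619 to 4208 against 1635 to 2367. Of 11 oligodendrocyte markers 2 passed as higher (Cldn11 and Aspa), with overlapping sums, and none of 8 progenitor, 5 endothelial, 7 fibroblast or 5 Schwann cell markers was called. No marker was at the lowest value of the table. The part of these cells in the changes of Ncan and Bcan was not tested. Without 4-day control 3 the Bcan difference was -1.11 (adjusted p = 0.000911) and the Ncan difference 0.82 (adjusted p = 0.0177).

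At 1 week p.i. Ncan stood at 7.49, 7.47, 7.43 and 7.05 and Bcan at 8.36, 8.21, 8.37 and 8.03 in animals 1, 2, 4 and 5. All were within the range of the 4-day controls. The difference from those controls was -0.25 for Ncan (95% CI -0.67 to 0.17) and 0.00 for Bcan (95% CI -0.41 to 0.41). Vcan stood at 6.55, 6.79, 6.77 and 6.77, each below the lowest control (6.80), and its difference was -0.44 (SE 0.17, 95% CI -0.80 to -0.08). That difference had an unadjusted p of 0.0195 but an adjusted p of 0.999. Lower without overlap were 1.04% of tested probes at this time, and no probe passed after adjustment (0% called, smallest limma adjusted p 0.149, 1031 probes at an unadjusted p under 0.05).

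The change between the early times was tested directly, from the 4 animals of 3 days and the 4 of 1 week. Here 3 of 10 members were called, where 2.47% of tested probes were. Ncan was higher at 3 days than at 1 week by 1.28 (SE 0.20, limma adjusted p = 0.0012) or 2.43-fold, Vcan was higher by 0.76 (SE 0.17, adjusted p = 0.0207) or 1.69-fold, and Bcan was lower, with a difference of -0.88 (SE 0.20, adjusted p = 0.0181). In each of these 3 lecticans the groups did not overlap (6.68% of tested probes). The fourth lectican, Acan, differed by 0.05 (95% CI -0.17 to 0.28), and none of the link proteins, Tnr or the membrane proteoglycans passed. Without 1-week animal 1 only Ncan stayed called. Bcan was lost without 1-week animal 4 (adjusted p = 0.0601) or 3-day animal 4 (adjusted p = 0.0727), and Vcan without 3-day animal 1 (adjusted p = 0.0731) or 2 (adjusted p = 0.0658).

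At 2 weeks no probe was called (0%, smallest limma adjusted p 0.431, 1229 probes at an unadjusted p under 0.05), and the precision was limited by 2 transected animals. The largest difference among the members was that of Hapln1, which has the role of fastening lecticans to hyaluronan in perineuronal nets. It stood at 7.93, 7.74, 7.79 and 7.74 in the 2-week controls and at 7.13 and 7.12 in the transected animals. Both lay well below all controls, with a difference of -0.67 (SE 0.19, 95% CI -1.06 to -0.29, unadjusted p = 0.00156, adjusted p = 0.613), which put it at rank 57 of 23240 probes by p. Hapln2 was also lower without overlap (-0.18, SE 0.11) and Tnr higher without overlap (0.26, SE 0.21), where 17.7% of tested probes did not overlap. Bcan (0.07) and Ncan (0.12) were within the spread of the controls.

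One month p.i. the differences of the members ran from -0.12 for Hapln1 to 0.09 for Acan, all 10 with overlapping groups (13.5% of tested probes did not overlap). No probe was called (0%, smallest limma adjusted p 0.779, 799 probes at an unadjusted p under 0.05). Bcan stood at 8.63 and 8.16 against 8.37, 8.52, 8.40 and 8.21 in the controls, and Ncan at 7.19 and 7.38 against 7.42, 7.42, 7.54 and 6.88. With 2 animals the interval of the Bcan difference still ran from -0.48 to 0.52.

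Hapln1 was the 1 member below its controls by over 0.1 at every time, with differences of -0.38 at 3 days, -0.23 at 1 week, -0.67 at 2 weeks and -0.12 at 1 month, the first pair against the same controls. The 1-month value rested on single arrays: it was 0.05 without 1-month animal 1, -0.04 without 1-month control 4 and -0.02 with all controls pooled. The differences of Hapln2 were -0.15, -0.03, -0.18 and -0.10 in the same order. In the mean of the 4 comparisons, the contrast nearest to a main effect of transection, Hapln1 differed by -0.35 (SE 0.09, 95% CI -0.55 to -0.16), with an unadjusted p of 0.00105 and an adjusted p of 0.120. No member was called in that contrast, where 0.404% of probes were, and Hapln1 passed only without 3-day animal 3. The levels of Hapln1 in the controls were 7.45 ± 0.08, 7.80 ± 0.09 and 7.78 ± 0.28 (SD, n = 4 each) at 4 days, 2 weeks and 1 month.

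Whether the effect at 3 days differed from the effects at the later times, each against its own controls, was tested in the same fit. For 2 weeks the difference of effects was -0.95 for Bcan (adjusted p = 0.467) and 0.91 for Ncan (adjusted p = 0.516), and for 1 month it was -0.89 (adjusted p = 0.461) and 1.06 (adjusted p = 0.352). None of the 10 members passed in either (0.0904% of tested probes in each), so that the 3-day effects were not shown to differ from those of 2 weeks and 1 month.

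The levels also differed among uninjured groups. Bcan stood at 7.63, 8.04, 7.50 and 7.92 in the 2-week controls and at 8.37, 8.52, 8.40 and 8.21 in the 1-month controls, which do not overlap (23% of tested probes). The difference of 0.60 (SE 0.20) had an adjusted p of 0.0524 in a comparison where 10.2% of probes were called. Of 12 astrocyte markers 11 were higher in the 1-month than in the 2-week controls and 1 lower, with a median of 0.34. As higher passed 6 of them, where 6.18% of all tested probes did. Their sums were 11599 to 15392 in the 2-week controls and 15133 to 17005 in the 1-month controls. These overlapped only through 2-week control 2 (15392). Also called as higher were 3 of 11 oligodendrocyte, 1 of 12 neuronal and 1 of 5 endothelial markers. The oligodendrocyte sums (11422 to 12968 against 13884 to 14651) and the neuronal sums (29776 to 31359 against 31631 to 32600) were higher at 1 month without overlap. In all other marker lists the sums overlapped. The part of any of these cells in the difference was not tested. Between 2-week and 4-day controls Ncan differed by -0.54 (SE 0.20, unadjusted p = 0.0153, adjusted p = 0.239). No member was called between any 2 control groups, where 0%, 0.0043% and 10.2% of probes were.

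Over the 7 groups the mean of Bcan followed the order 3 days (7.37), 2-week controls (7.77), 2 weeks (7.85), 4-day controls (8.24), 1 week (8.24), 1-month controls (8.38) and 1 month (8.40), and arrays of neighbours in this order overlapped at each step. Ncan ran from the 2-week controls (7.07) through 2 weeks (7.19), 1 month (7.29), 1-month controls (7.32), 1 week (7.36) and 4-day controls (7.61) to 3 days (8.64), and only that last step had no overlap. Set against all 12 controls pooled, the 3-day differences were 1.31 for Ncan, -0.76 for Bcan, 0.57 for Vcan (adjusted p = 0.021) and -0.61 for Hapln1 (adjusted p = 0.0048), and 4 members were called where 9.11% of probes were.

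The probes whose profile over the 24 arrays came nearest to that of Bcan, by the root mean square difference of centred log2 levels, were Abat (0.23), Camk2g (0.23), Itih3 (0.24), S1pr1 (0.25) and Agt (0.25). A flat profile lay at 0.44 from Bcan, and among the other members Cspg5 (0.36) and Hapln2 (0.38) were nearest and Ncan (0.83) farthest. Abat encodes GABA transaminase, Camk2g a calcium and calmodulin dependent kinase, Itih3 a heavy chain that is joined to hyaluronan, S1pr1 a sphingosine 1-phosphate receptor and Agt angiotensinogen. Their 3-day differences ran from -0.85 (Itih3) to -0.38 (Abat), which is part of what the likeness was computed from.

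**Figure D4:**
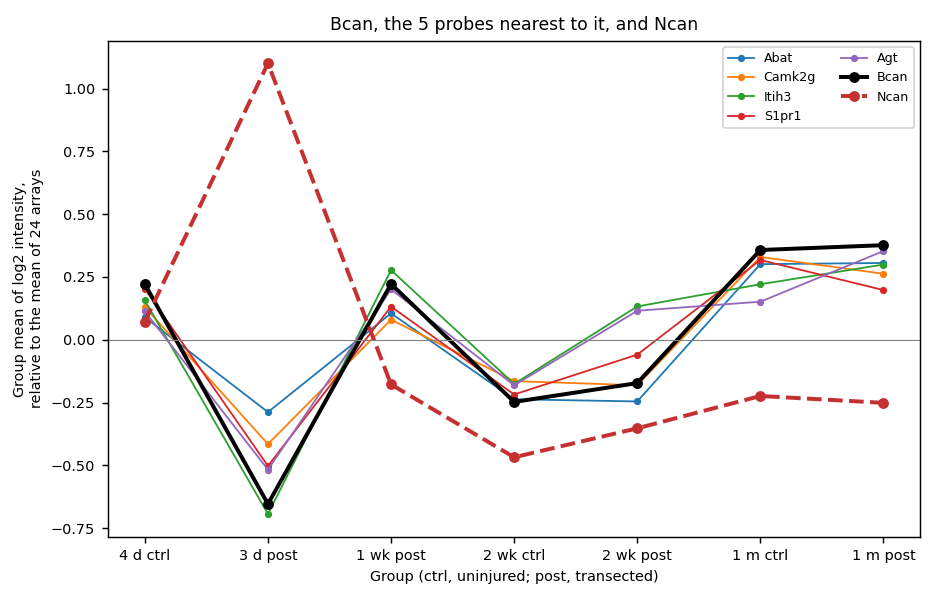
Group means of log2 intensity relative to each probe's mean over the 24 arrays (y axis) in the 7 groups (x axis), for Bcan (thick black), the 5 probes nearest to it (thin lines) and Ncan (dashed red); lines join groups only to guide the eye. Ncan, at 0.83 from Bcan in root mean square difference, peaks in the 3-day group where Bcan is lowest.

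The wider pathway was followed through 5 lists, read against 2.89% of all tested probes called at 3 days. None of their genes was called at 1 week, 2 weeks or 1 month, when no probe at all was. Of 21 tested genes that build and sulfate the chondroitin chain, 1 fell and none rose: Xylt1, which puts the first xylose on the core protein (-0.32, SE 0.08, adjusted p = 0.0302). It stood at 6.90 to 7.03 in the controls and at 6.52 to 6.73 at 3 days, without overlap. Csgalnact1, which starts the chondroitin repeat, differed by 0.59 (adjusted p = 0.113). The list had a median of 0.02, with 11 genes higher and 10 lower.

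Of 15 receptors and binding partners of the proteoglycans 1 rose, the integrin chain Itgb1 (0.80, SE 0.17, adjusted p = 0.0112). The phosphatase receptor Ptprs differed by 0.08 and Rtn4r, the Nogo receptor, by 0.03. The list median was 0.03. Among 13 lectican-cleaving proteases and inhibitors 2 rose: Timp1, an inhibitor of metalloproteinases (2.09, SE 0.35, adjusted p = 0.00169), and the metalloproteinase Mmp3 (0.67, SE 0.15, adjusted p = 0.0169). The lectican-cleaving Adamts4 (-0.10) and Adamts5 (-0.10) did not pass, and the list median was 0.01.

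Hyaluronan is the backbone to which the lecticans bind. Of 10 genes of its synthesis, breakdown and binding 2 rose, the receptors Lyve1 (0.89, SE 0.13, adjusted p = 0.000444) and Hmmr (1.39, SE 0.29, adjusted p = 0.0098), and the list median was 0.11. The synthase Has2 differed by -0.16 and the hyaluronan receptor Cd44 by 0.62 (adjusted p = 0.0905). Among 14 other matrix proteoglycans, tenascins, link proteins and fibronectin, Fn1 (fibronectin) rose by 1.10 (SE 0.14, adjusted p = 9.55e-05) and Spock3, a testican, fell by 0.50 on the log2 scale (SE 0.10, adjusted p = 0.00751). Their list median was 0.14. The neighbours of Acan and Ncan in the genome, Hapln3 (0.08) and Hapln4 (-0.03), did not pass.

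**Figure D5:**
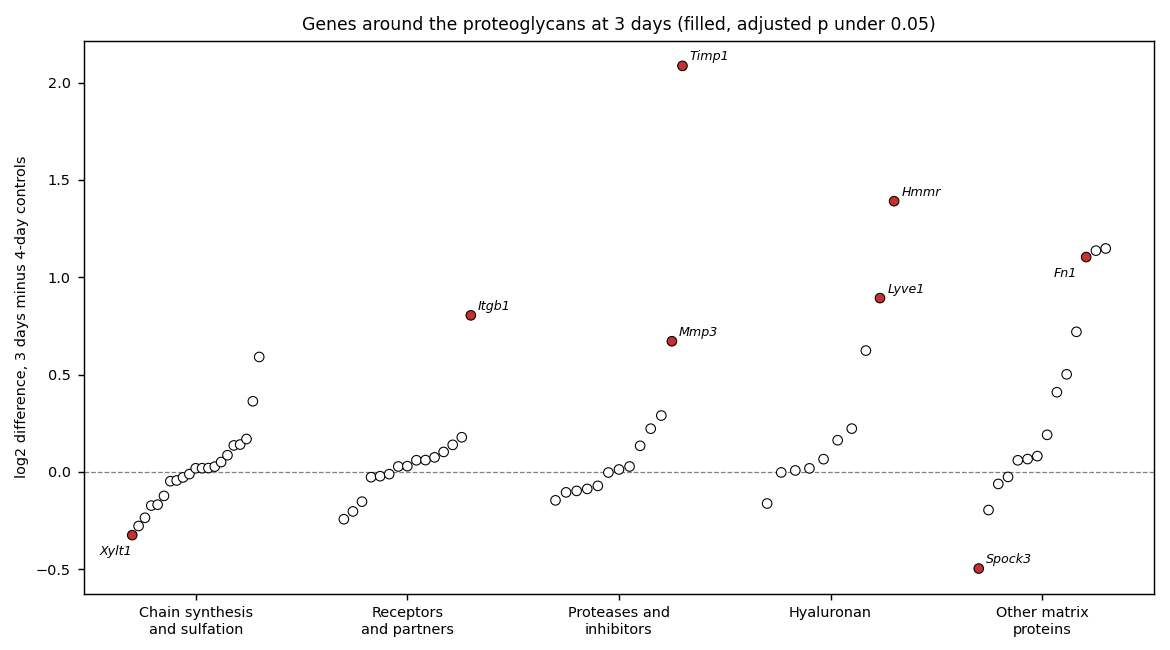
Log2 difference between 3 days p.i. and the 4-day controls (y axis) for each tested gene of the 5 pathway lists (x axis), ordered by value within a list; filled points have an adjusted p under 0.05. The filled points are Xylt1 and Spock3 below 0 and Itgb1, Timp1, Mmp3, Hmmr, Lyve1 and Fn1 above 0.

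Between 3 days and 1 week the same test called Xylt1 (-0.42, adjusted p = 0.00749) and Spock3 (-0.42, adjusted p = 0.0272) as lower at 3 days and Timp1 (2.11, adjusted p = 0.00188), Hmmr (1.75, adjusted p = 0.00174), Lyve1 (0.84, adjusted p = 0.000894), Fn1 (1.04, adjusted p = 0.000173) and Fmod, a small leucine-rich proteoglycan (1.43, adjusted p = 0.0457), as higher. In the mean over the 4 times Timp1 (1.03, adjusted p = 0.0356) and Mmp3 (0.46, adjusted p = 0.027) were called. The microglial sums were 5407 to 7572 at 1 week against 7511 to 10317 at 3 days, with a slight overlap. All 14 microglial markers were higher at 3 days, with a median of 0.61, and 3 were called, where 1.93% of all tested probes were called as higher. Of 11 oligodendrocyte markers 5 were higher and 6 lower, with 2 called as higher and overlapping sums. Without overlap, the pericyte (1797 to 2351 against 2619 to 4208) and Schwann cell sums (660 to 698 against 728 to 1081) were higher at 3 days. Of 7 pericyte markers 5 were higher at 3 days and 2 lower, with 1 called as higher. The Schwann cell sum did not reflect most of its list: of 5 markers 2 were higher and 3 lower, with a median of -0.01 and none called. The astrocyte sums were lower at 3 days (15519 to 16954 against 12835 to 15185), also without overlap. Of 12 astrocyte markers 10 were lower and 2 higher, with 2 called as lower (0.542% of all tested probes were). In all other marker lists the sums overlapped. The part of any of these cells was not tested, in these differences or in those of Bcan, Ncan and Vcan. Between the uninjured groups of 1 month and 2 weeks 10 genes of the lists were called, where 10.2% of all tested probes were. They were 3 of 21 genes of chain synthesis, 1 of 15 receptors and partners and 1 of 13 proteases and inhibitors. The rest were 3 of 14 other matrix genes and, of 10 hyaluronan genes, 1 higher and 1 lower. Higher at 1 month were Fam20b, Csgalnact2, Papss1, Timp3, Hyal3, Spock1, Spock2 and Spock3 (0.42, adjusted p = 0.0157). Rtn4r and Lyve1 (-0.42, adjusted p = 0.0437) were lower.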

How the data were processed

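RNA of 24 rats was measured on 24 arrays. GeneSpring GX was the program in which the authors ran RMA, with quantile normalization, and what they deposited are intensities on a linear scale, from 17.0 to 7980, with array medians of 73.6 to 81.3 and 0.356% of values at the lowest. The labels and the methods name different amplification kits of one maker, and no raw image was used here, so background and detection limits could not be set.

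Log2 was taken of the deposited values. Of 27342 probes, 15097 had 1 symbol in the platform's annotation, 323 several and 11922 none. Probes in the lowest 15 percent by mean log2 (under 5.05) were left out, as in the methods' networks. R 4.3.3 and limma 3.58.1 gave the fit of all 7 group means (residual degrees of freedom 17, prior 3.64) with Benjamini-Hochberg adjustment over 23240 probes at 0.05. Adjusted p-values come from this fit unless another is named. Controls are named by their labels.

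The 10 genes and all lists were chosen with earlier results of these data known. All 10 were to be described, with up to 3 called genes of each pathway list in each direction. The pathway genes named at 3 days without a call were picked outside that rule. They are Csgalnact1, Ptprs, Rtn4r, Adamts4, Adamts5, Has2, Cd44, Hapln3 and Hapln4. Lists were given by counts and medians, with no test of the list. The alternatives were other filters, normalizations, weights, controls, samples in the fit, a replicate block, the mean of a gene's probes, a t-test of the compared groups with equal variances (the study names a 2-way ANOVA for the arrays) and each array left out.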

Additional observations from a re-analysis of the deposited data

Results flagged for a closer look

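Among 50 sets of 4 arrays examined (10 genes in 5 groups), 2 held an array far from the others, where chance gives about 1 in 20. Ncan in 1-week animal 5 stood at 7.05, against 7.43 to 7.49 in the other 3 animals, and Vcan in 1-week animal 1 stood at 6.55, against 6.77 to 6.79.

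In 3 lecticans the effects at 3 days and at 1 week, against the same controls, differed by limma's test of that difference: Bcan by -0.88 (adjusted p = 0.0181), Ncan by 1.28 (adjusted p = 0.0012) and Vcan by 0.76 (adjusted p = 0.0207). The shared controls cancel, so these are the calls between 3 days and 1 week given above and no further result. In that contrast 2.47% of tested probes were called. Without the outlying 1-week animal 5 the Ncan difference was 1.17 (adjusted p = 0.00647), and without the outlying 1-week animal 1 the Vcan difference was 0.70 (adjusted p = 0.065).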

How the results depend on the processing

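The direction of both 3-day calls was kept in all 12 other settings and in all fits that left out an array. The number of members called at 3 days was 2 in the main fit, where 2.89% of probes were called. It was 0 with the compared groups alone (0.0947% of probes), 4 with all 12 controls pooled (9.11%) and 1 with 4-day controls 1 and 2 only (1.23%). It was also 0 by a t-test of the compared groups, which gave 2001 probes at an unadjusted p under 0.05 and 0 after adjustment. Leaving out each array gave 1 to 2 (1.8% to 4.54% of probes). Between 3 days and 1 week the 3 calls became 0 by that t-test and 1 to 3 without an array (1.37% to 3.51% of probes). With all controls pooled the adjusted p of Bcan was 0.0502. In the mean over the times the count was 0 to 1. The causes were not tested. With a replicate block 2 members were called at 3 days (759 of all probes), the same count as without it, and samples of one number did not deviate together (mean r 0.0215 over 55 pairs, against -0.0063 over 189 others), so the numbers were not read as pairs. At the later times no setting called a member. Of 38 differences not past the threshold, 23 changed sign in at least 1 setting, none above 0.25 in size. The 2 animals a group at 2 weeks and 1 month limit the precision there.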
